A study of Homo sapiens with 4 samples.

Results

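The enzymes and transporters that carry glucose to pyruvate and lactate, control the entry of pyruvate into mitochondria and run the TCA cycle were followed in MDA-MB-231 cells under MGH-CP1, an inhibitor of TEAD autopalmitoylation. TEADs are the transcription factors through which the co-activators YAP and TAZ act. The genes were taken by symbol, 44 of the 48162 genes in the deposited table. They comprise 24 genes of glycolysis, 9 genes of pyruvate dehydrogenase and its control, pyruvate carboxylase on its own, and 10 genes listed with the TCA cycle. MDA-MB-231 is an established triple-negative breast cancer line, grown here in DMEM with serum. Poly-T selected RNA was sequenced in 2 libraries from cells given the vehicle and 2 from cells given MGH-CP1, all for 24 hours. The labels give the dose of MGH-CP1 as 10 µM and the methods name the same figure in mM. All 4 libraries come from 1 line, and nothing states that the replicates were grown separately, so the p-values measure the spread between these libraries, which may be technical.

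In glycolysis a cell splits glucose in the cytosol into pyruvate, with a small gain of ATP. Pyruvate can then be reduced to lactate by lactate dehydrogenase and exported through monocarboxylate transporters, or it can enter mitochondria. There the pyruvate dehydrogenase complex turns it into acetyl-CoA for the TCA cycle, or pyruvate carboxylase turns it into oxaloacetate. Pyruvate dehydrogenase kinases (PDK1 to PDK4) phosphorylate the complex and switch it off, and pyruvate dehydrogenase phosphatases switch it back on. Many of these steps are run by isoenzymes from separate genes, of which some are induced by low oxygen, fasting or insulin in particular tissues. Cancer cells often form lactate even when oxygen is present.

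The libraries held 25455533 and 25508824 fragments on genes for vehicle and 17997221 and 17577930 for MGH-CP1. Mitochondrially encoded genes took 0.418% to 0.447% of the fragments in the vehicle libraries and 1.53% to 1.57% in the MGH-CP1 libraries. Depth and this share both follow the treatment, and their part in the results below was not tested. Library totals without the mitochondrially encoded genes gave 24 enzymes called higher and 7 called lower, against 22 and 7 with them. That only rescales each library, so it does not test the part of depth or of this share. The mesenchymal markers VIM (259 to 281 FPKM) and CD44 (198 to 221 FPKM) were high in every library, and AXL and CAV1 were present in all 4, with 149 to 187 and 272 to 278 FPKM after MGH-CP1 against 274 to 293 and 385 to 389 FPKM with vehicle. Of the luminal markers, ESR1, PGR and FOXA1 had at most 4 fragments in a library and EPCAM had 12.4 to 16.4 FPKM. The blood marker PTPRC had at most 3 fragments in a library, and HBB and the adipocyte marker ADIPOQ had 0 in all 4.

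After MGH-CP1, glycolytic transcripts were mostly higher, all 4 pyruvate dehydrogenase kinases were higher, and of the 10 TCA cycle genes 1 was called higher and 3 lower. Of the 43 genes with a mean of at least 1 FPKM (fragments per kilobase, scaled to the depth of the library), 22 were called higher, 7 lower and 14 neither, by limma on log2(FPKM + 1) with Benjamini-Hochberg adjustment over the 12080 genes tested and a threshold of 0.05. These are 51.2% and 16.3% of the 43, where 27.1% of all genes tested were called higher and 23.8% lower. With each library scaled to the same summed FPKM instead, the split was 19 higher and 11 lower among the 43, and 2660 higher and 3770 lower among all genes, against 3273 and 2869 as deposited. Without MGH-CP1 replicate 2, 4 of the 43 were called lower. Both MGH-CP1 libraries lay above both vehicle libraries for 28 of the 43 genes and below them for 12. This occurred for 39.8% and 37.4% of all genes tested. FPKM is a share of a library, so a change in the RNA of a gene per cell and a change in the total RNA per cell cannot be told apart.

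The medians differed by class. The 23 glycolysis genes tested had a median log2 fold change of 0.24, with 15 genes called higher, 2 lower and 6 neither. Over the 9 pyruvate dehydrogenase genes it was 0.15, with 5 higher, 2 lower and 2 neither. Within this class the complex and its control differed. The 4 genes of the complex had a median of −0.16 and the 5 genes of its control 0.36. Over the 10 TCA cycle genes the median was −0.12, with 1 higher, 3 lower and 6 neither. With so few genes, 3 of 10 lower is near the share of 23.8% over all genes tested. Taking each MGH-CP1 library against each vehicle library, the class medians had SDs of 0.017, 0.028 and 0.016 (n = 4 pairs, which share libraries). The median over all genes tested was 0.01. The class medians move with the scale of the libraries: at equal summed FPKM they were 0.16, 0.08 and −0.20, while the median of all genes was −0.05.

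**Figure D1:**
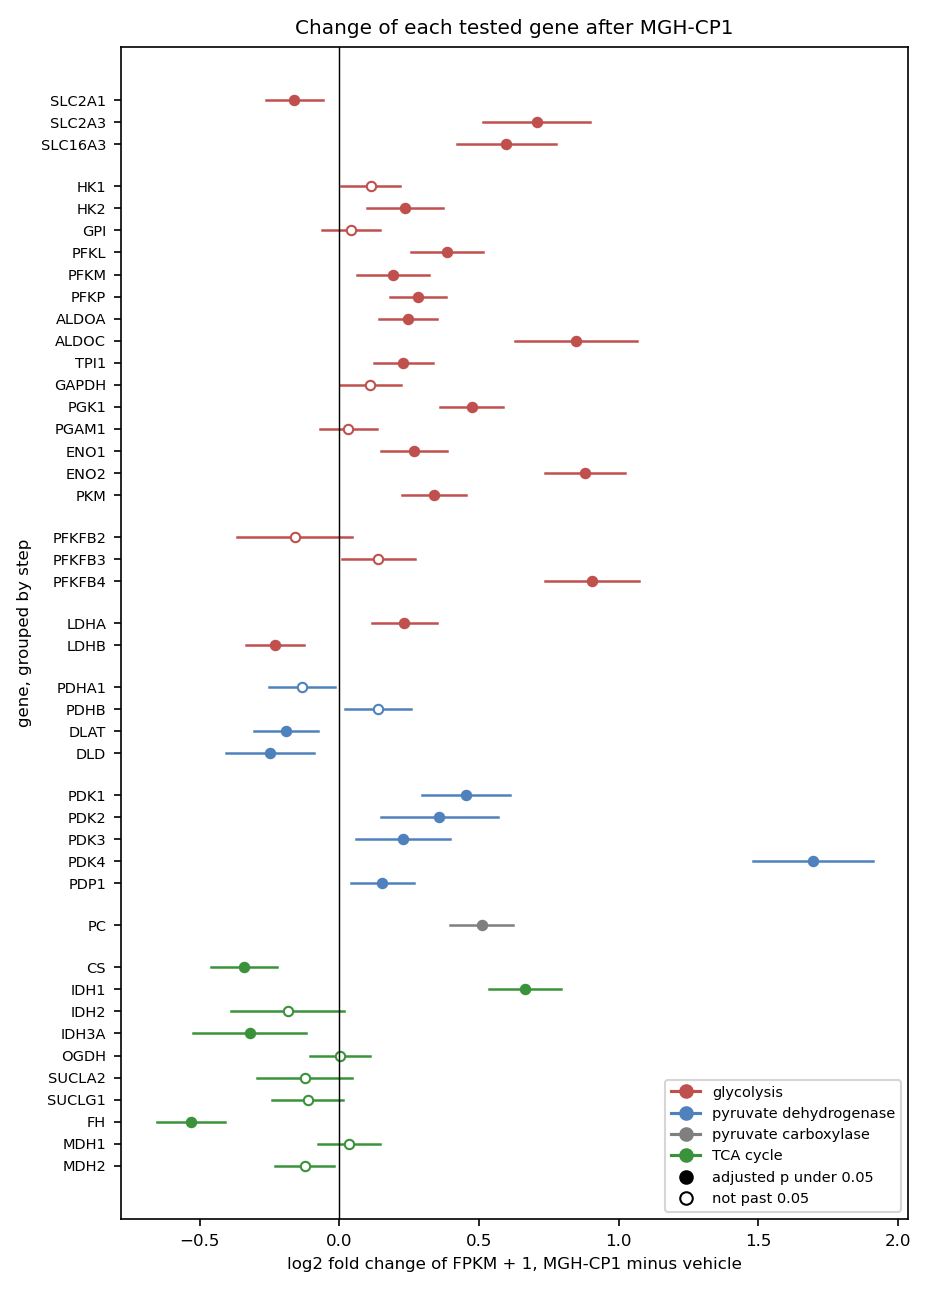
Log2 fold change of FPKM + 1 (MGH-CP1 minus vehicle, horizontal axis) of the 43 genes tested, grouped from top to bottom by step, with 95% confidence intervals from limma as lines and filled points for an adjusted p under 0.05. The glycolytic enzymes lie at or right of 0, the 4 kinases lie right of 0 with PDK4 at 1.70, and FH lies lowest of all at −0.53.

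Changes beyond 0.5 on the log2 scale were found for 8 genes upward and 1 downward. PDK4, PFKFB4, ENO2, ALDOC, SLC2A3, IDH1, SLC16A3 and PC rose and FH fell, and among all genes tested 10.6% were above 0.5 and 6.18% below −0.5. RefSeq promoters (build GRCh38.p14) were found for 8 of these 9 genes, with 15 start sites in all. The 250 bases before the start of the 4 genes that rose most and of FH are shown because they stand at the ends of the range. They are written 5′ to 3′ on the strand of the gene. Capitals mark matches, on either strand, to the hypoxia response cores ACGTG and GCGTG, the E-box CACGTG or the TEAD core GGAATG. The E-box holds the core ACGTG on both strands.
PDK4, chr7:95596517-95596766, minus strand: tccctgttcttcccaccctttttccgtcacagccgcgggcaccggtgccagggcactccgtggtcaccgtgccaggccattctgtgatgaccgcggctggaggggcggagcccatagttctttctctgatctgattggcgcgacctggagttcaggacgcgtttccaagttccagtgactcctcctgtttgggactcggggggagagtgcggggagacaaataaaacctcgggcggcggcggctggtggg
PFKFB4, chr3:48556804-48557053, minus strand: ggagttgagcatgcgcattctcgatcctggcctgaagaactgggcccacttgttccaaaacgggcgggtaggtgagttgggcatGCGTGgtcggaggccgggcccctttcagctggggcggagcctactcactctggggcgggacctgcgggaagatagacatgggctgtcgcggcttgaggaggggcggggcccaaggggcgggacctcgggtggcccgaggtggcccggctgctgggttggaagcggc
ENO2, chr12:6914330-6914579, plus strand: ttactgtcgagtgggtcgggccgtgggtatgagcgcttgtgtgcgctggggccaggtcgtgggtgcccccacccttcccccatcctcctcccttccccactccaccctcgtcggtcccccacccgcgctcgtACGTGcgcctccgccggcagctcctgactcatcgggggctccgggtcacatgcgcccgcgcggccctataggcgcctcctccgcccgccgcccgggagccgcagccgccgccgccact
ALDOC, chr17:28576896-28577145, minus strand: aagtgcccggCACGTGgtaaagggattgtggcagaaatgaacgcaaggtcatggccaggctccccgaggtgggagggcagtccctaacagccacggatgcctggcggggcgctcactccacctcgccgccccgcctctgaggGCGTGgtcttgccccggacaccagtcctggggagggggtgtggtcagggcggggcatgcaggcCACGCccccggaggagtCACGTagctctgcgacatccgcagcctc
FH, chr1:241519756-241520005, minus strand: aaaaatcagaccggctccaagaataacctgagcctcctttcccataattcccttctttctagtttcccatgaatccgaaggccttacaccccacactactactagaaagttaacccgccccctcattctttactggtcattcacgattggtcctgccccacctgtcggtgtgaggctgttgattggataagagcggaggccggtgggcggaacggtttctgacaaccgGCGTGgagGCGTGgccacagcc
The PDK4 window holds none of the 4 motifs and the ENO2 window holds ACGTG once. The ALDOC window holds CACGTG once and, apart from it, ACGTG once on the opposite strand. GCGTG or its reverse complement is in the windows of PFKFB4, ALDOC and FH, that is, in genes that moved in opposite directions.

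Over the 15 windows of the 8 genes, ACGTG was found in 5, GCGTG in 6, CACGTG in 1 and GGAATG in 0. Over all 35116 RefSeq windows of this length, the shares were 18.5%, 32.2%, 6.34% and 11.9%. In the 72 windows found for 39 of the 44 genes they were 31.9%, 34.7%, 11.1% and 13.9%. A match describes these letters only, and a window without one says nothing about the factor. No entry matched SLC2A3.

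Glucose enters and lactate leaves through the transporters, of which 4 were followed. SLC2A1, the widely expressed glucose transporter GLUT1, had 257 and 259 FPKM with vehicle and 231 and 230 FPKM after MGH-CP1. SLC2A3, the high-affinity transporter GLUT3, had 10.6 and 10.1 FPKM with vehicle and 19.0 and 16.1 FPKM after MGH-CP1. The groups did not overlap for either gene, and the abundant transporter went down while the scarce one went up. SLC2A1 fell by 0.16 on the log2 scale (SE 0.0437, limma adjusted p = 0.0160) and SLC2A3 rose by 0.71 (SE 0.0829, limma adjusted p = 0.000307). The SLC2A1 call is a weak one, since the limma adjusted p was 0.0811 without MGH-CP1 replicate 1 and 0.0815 without MGH-CP1 replicate 2. As a share of the summed FPKM of the pair, SLC2A3 moved from a mean of 3.86% to 7.07%.

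Lactate export showed a rise of its main gene. SLC16A3 encodes MCT4, the exporter typical of glycolytic cells, and lies at chr17:80186273-80219005, plus strand (build hg19, as for all coordinates in the deposited table). It had 79.3 and 94.4 FPKM with vehicle and 130.3 and 132.7 FPKM after MGH-CP1. The vehicle libraries differ from each other more than the MGH-CP1 libraries do, but the groups do not overlap, and the log2 fold change was 0.60 (SE 0.0765, limma adjusted p = 0.000458). CSNK1D overlaps the locus on the opposite strand with fragments equal to 25.3% of those of SLC16A3. Whether strand was used in counting is not given in the sources used here. SLC16A1, which encodes MCT1, had 7 to 13 fragments in a library and was below the 1 FPKM limit, with 0.117 and 0.0807 FPKM with vehicle and 0.0889 and 0.117 FPKM after MGH-CP1. The groups overlap, and SLC16A3 made up a mean of 99.9% of the summed FPKM of the pair under either condition.

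All 15 glycolytic enzymes from hexokinase to pyruvate kinase had both MGH-CP1 libraries above both vehicle libraries, and 11 of the 15 were called higher, with none called lower. Over all genes tested, 39.8% had both MGH-CP1 libraries above both vehicle libraries, and 27.1% were called higher. The lower directions seen under other scales were GPI and PGAM1, whose changes of 0.04 and 0.03 turned negative under median-ratio scaling and at equal summed FPKM, and GAPDH, PGAM1, ENO1 and PKM under quantile normalization. The median log2 fold change of the 15 was 0.25. Summed over the 15, the level was 5440 and 5475 FPKM with vehicle and 6593 and 6399 FPKM after MGH-CP1. The sum rose 1.19-fold, and as a share of all FPKM it went from a mean of 1.68% to 1.89%. The levels of the 15 span a wide range. ENO1 ranked 7th or 8th of all genes by FPKM in every library, PKM 13th to 18th and GAPDH 16th to 25th, while PFKM ranked 3689th to 4262nd and ALDOC 8372nd to 10344th.

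Of the abundant enzymes, PGK1, which makes the first ATP of the payoff phase, moved most. It had 217 and 228 FPKM with vehicle and 315 and 303 FPKM after MGH-CP1, with a log2 fold change of 0.47 (SE 0.0492, limma adjusted p = 0.000176). PKM, pyruvate kinase, had 1039 and 1036 FPKM with vehicle and 1344 and 1282 FPKM after MGH-CP1, with a log2 fold change of 0.34. ENO1, the common enolase, had 1683 and 1700 FPKM with vehicle and 2077 and 1993 FPKM after MGH-CP1, with a log2 fold change of 0.27. In each of these the 2 conditions do not overlap in FPKM. Without the filter on low values the calls of PKM and ENO1 were lost (limma adjusted p = 0.0558 and 0.137), while PGK1 kept its call (0.0170). PKM was called lower under quantile normalization (−0.15). The aldolase ALDOA and the triose phosphate isomerase TPI1 rose by 0.25 and 0.23. GAPDH, often used as a reference gene, had 911 and 897 FPKM with vehicle and 986 and 968 FPKM after MGH-CP1, and its log2 fold change of 0.11 did not pass the threshold (limma adjusted p = 0.0812). PGAM1 and GPI had log2 fold changes of 0.03 and 0.04 and were not called.

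The hexokinases and the subunits of phosphofructokinase had log2 fold changes from 0.11 to 0.39. HK2, the inducible hexokinase, had 26.0 and 28.0 FPKM with vehicle and 31.3 and 32.6 FPKM after MGH-CP1, while HK1, the housekeeping form, had 77.2 and 76.2 against 82.6 and 83.4 FPKM. HK2 was called higher (log2 fold change 0.24, limma adjusted p = 0.0109) and HK1 was not (0.11, limma adjusted p = 0.0704). The difference between these changes was not tested, and the HK2 call was lost without vehicle replicate 1 (limma adjusted p = 0.0522) and without MGH-CP1 replicate 2 (0.0672). All 3 subunits of phosphofructokinase, the committed step, were called higher, where 27.1% of all genes tested were. PFKP, the platelet form and the main subunit here, had 161 and 161 FPKM with vehicle and 196 and 195 FPKM after MGH-CP1. PFKL, the liver form, went from a mean of 33.1 to 43.5 FPKM, and PFKM, the muscle form, from 16.5 to 19.0 FPKM. Their log2 fold changes were 0.28, 0.39 and 0.19. The PFKM call did not hold when any 1 of the 4 libraries was left out, with limma adjusted p between 0.0503 and 0.0922, and SENP1 overlaps PFKM on the opposite strand with fragments equal to 51.9% of it.

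The largest rises among the glycolytic enzymes were in 2 isoenzymes best known from neurons. ENO2, neuron-specific enolase, at chr12:7022909-7032861, plus strand (hg19), had 38.1 and 41.2 FPKM with vehicle and 77.0 and 70.7 FPKM after MGH-CP1. Both treated libraries were far above both vehicle libraries, and the log2 fold change was 0.88 (SE 0.0619, limma adjusted p = 3.69e-05). ALDOC, the brain form of aldolase, at chr17:26900133-26904282, minus strand, had 2.58 and 2.22 FPKM with vehicle and 5.24 and 4.97 FPKM after MGH-CP1. Those values rest on 112 to 187 fragments, do not overlap, and gave a log2 fold change of 0.85 (SE 0.0953, limma adjusted p = 0.000253), which on a scale with 1 added understates the 2.13-fold ratio of the means. RP11-192H23.4 overlaps ALDOC on the same strand and had 21 to 58 fragments. Both isoenzymes remained minor, ENO2 at a mean of 2.29% and then 3.50% of enolase FPKM and ALDOC at 0.497% and then 0.888% of aldolase FPKM.

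**Figure D2:**
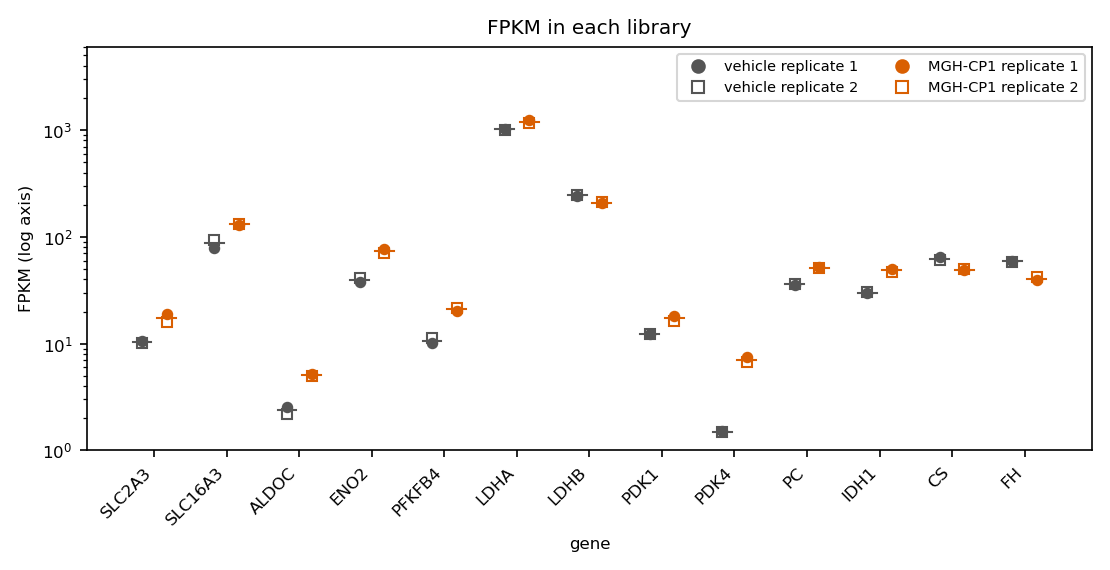
FPKM (vertical log axis) of 13 genes in each of the 4 libraries, with filled and open symbols for replicates 1 and 2 and a short line at the mean of each group. PDK4 goes from 1.498 to 7.10 FPKM on average, LDHA and LDHB move in opposite directions, and CS and FH are lower after MGH-CP1.

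The PFKFB genes make and break fructose 2,6-bisphosphate, the strongest activator of phosphofructokinase. PFKFB4, at chr3:48555117-48599448, minus strand (hg19), had 10.1 and 11.3 FPKM with vehicle and 20.02 and 21.78 FPKM after MGH-CP1. The treated libraries were well above the others, with a log2 fold change of 0.91 (SE 0.0732, limma adjusted p = 6.27e-05). This was the second largest of the 43 genes on the scale with 1 added. With 0.1 added, ALDOC rose more than PFKFB4 (1.06 against 0.96). PFKFB3, the form with the most kinase activity, had 23.0 and 24.7 FPKM with vehicle and 26.4 and 26.3 FPKM after MGH-CP1, and its log2 fold change of 0.14 missed the threshold (limma adjusted p = 0.0726), with 0.19 (0.0453) without vehicle replicate 2 and 0.0910 (0.318) without vehicle replicate 1. PFKFB2, the heart form, had 3.92 and 4.16 against 3.35 and 3.67 FPKM and was not called. PFKFB4 went from a mean of 27.7% to 41.2% of the summed FPKM of the 3 genes and PFKFB3 from 61.8% to 51.9%. YOD1 overlaps PFKFB2 on the opposite strand with more fragments than PFKFB2 itself (138% of it), and UCN2 overlaps PFKFB4 on the same strand with 5.37%.

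The subunits of lactate dehydrogenase parted. LDHA, the subunit that favours reduction of pyruvate to lactate, had 1034 and 1013 FPKM with vehicle and 1232 and 1173 FPKM after MGH-CP1. LDHB, the subunit of oxidative tissues, had 242 and 249 FPKM with vehicle and 207 and 210 FPKM after MGH-CP1. Neither gene overlapped between the conditions, one rose and the other fell. The log2 fold change was 0.23 for LDHA (SE 0.0507, limma adjusted p = 0.00603) and −0.23 for LDHB (SE 0.0450, limma adjusted p = 0.00351). LDHB went from a mean of 19.3% to 14.8% of the summed FPKM of the pair. Multiplying a library by a constant does not alter this share. On each alone the scale matters: LDHA was called lower under quantile normalization (−0.26), which sets the values of the most abundant genes by their ranks, and LDHA fell from rank 14 to rank 19. Without MGH-CP1 replicate 1 the LDHA call was lost (limma adjusted p = 0.0696). Pseudogenes of LDHA had 281 to 410 fragments in a library, 0.605% of those of LDHA.

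**Figure D3:**
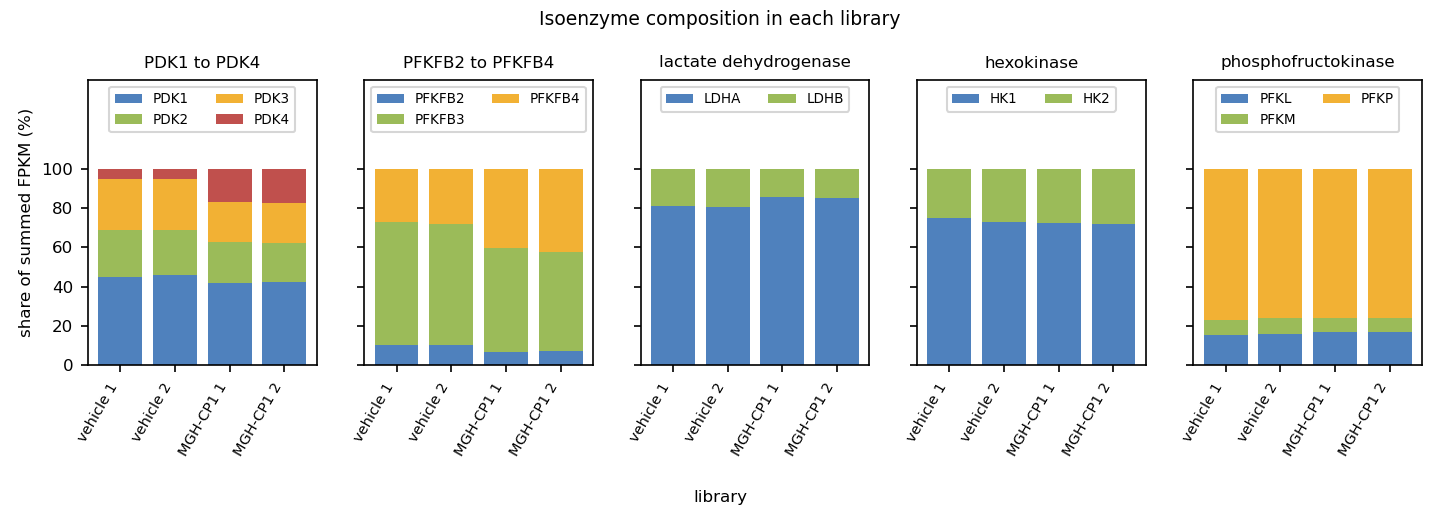
Share of the summed FPKM (vertical axis, percent) taken by each isoenzyme in each of the 4 libraries, for PDK1 to PDK4, PFKFB2 to PFKFB4, lactate dehydrogenase, hexokinase and phosphofructokinase. PDK4 widens from a mean of 5.50% to 17.2% and PFKFB4 from 27.7% to 41.2%, while PFKP keeps 75.7% to 76.8% of phosphofructokinase.

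The control of pyruvate dehydrogenase held the largest change of all 44 genes. PDK4, the kinase that rises in fasting and fat oxidation, lies at chr7:95212811-95225803, minus strand (hg19). It had 1.51 and 1.49 FPKM with vehicle and 7.49 and 6.71 FPKM after MGH-CP1, from 137, 136, 482 and 422 fragments. The vehicle libraries were almost equal and both treated libraries were several times higher. The ratio of the means was 4.74, and the log2 fold change of FPKM + 1 was 1.70 (SE 0.0928, limma adjusted p = 1.91e-05). PDK4 ranked 24th of the 12080 genes tested, with 0.190% of them rising more. Without any 1 library the log2 fold change was 1.63 to 1.76.

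The other kinases rose less. PDK1, the kinase induced by low oxygen, had 12.4 and 12.4 FPKM with vehicle and 18.3 and 16.4 FPKM after MGH-CP1, with a log2 fold change of 0.45 (SE 0.0687, limma adjusted p = 0.00103). PDK2, the widely expressed form, had 6.54 and 6.12 against 9.16 and 7.69 FPKM, with a log2 fold change of 0.36 (limma adjusted p = 0.0121). PDK3 had 7.06 and 6.94 against 8.74 and 8.03 FPKM, with a log2 fold change of 0.23 (limma adjusted p = 0.0307). None of them overlapped between conditions, and MGH-CP1 replicate 1 was the higher of the treated libraries for every kinase. Without that library the limma adjusted p was 0.0809 for PDK2 and 0.165 for PDK3, and the PDK3 call was also lost without vehicle replicate 1 (0.0770) or vehicle replicate 2 (0.0943). PDP1, the catalytic subunit of a phosphatase that opposes the kinases, had 39.8 and 40.5 against 45.4 and 44.1 FPKM and was also called higher, by 0.15 (limma adjusted p = 0.0308). That call was lost without either MGH-CP1 library (0.148 and 0.0712) or vehicle replicate 1 (0.0996), and at equal summed FPKM (0.218).

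Summed over the 4 kinases, the level was 27.5 and 26.9 FPKM with vehicle and 43.7 and 38.8 FPKM after MGH-CP1, a 1.52-fold rise of the mean. PDK4 made up 5.46% and 5.54% of this sum with vehicle and 17.1% and 17.3% after MGH-CP1. PDK1 remained the most abundant kinase, at a mean of 45.6% and then 42.1%. The shares were close between replicates, and PDK4 was the kinase that gained share while the means of PDK1, PDK2 and PDK3 lost it.

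Of the 4 genes of the complex that the kinases act on, none was called higher, 2 were called lower and 2 neither. Over all genes tested, 27.1% were called higher and 23.8% lower, and 4 genes are too few to set against these shares. DLAT, the acetyltransferase core, had 36.1 and 36.8 FPKM with vehicle and 32.0 and 31.7 FPKM after MGH-CP1. DLD, the dehydrogenase shared with other complexes, had 40.4 and 38.3 against 35.1 and 31.0 FPKM. Both sets were lower without overlap. The log2 fold change was −0.19 for DLAT (SE 0.0496, limma adjusted p = 0.0136) and −0.25 for DLD (SE 0.0677, limma adjusted p = 0.0163). The DLAT call was lost without MGH-CP1 replicate 1 (0.0551) or 2 (0.0641), and the DLD call without vehicle replicate 1 (0.0538) or MGH-CP1 replicate 2 (0.103). LAMB1 overlaps DLD on the opposite strand and went from 4473 and 4400 fragments to 2214 and 2271, where DLD itself had 2045 to 3859. Its part in the DLD values was not tested. PDHA1 and PDHB, the subunits of the decarboxylase, had log2 fold changes of −0.13 and 0.14 and neither was called (limma adjusted p = 0.0599 and 0.0547). PDHB had 27.38 and 27.36 FPKM with vehicle and 30.75 and 29.70 FPKM after MGH-CP1, higher without overlap. It was called higher with a minimum of 5 FPKM (limma adjusted p = 0.0490) and under quantile normalization (0.0453). The same held with voom (0.0337) and with totals without mitochondrial genes (0.0376). PDHA1 was called lower under median-ratio scaling (limma adjusted p = 0.0175). The 4 genes summed to 135 and 133 FPKM with vehicle and 126 and 121 FPKM after MGH-CP1.

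Pyruvate carboxylase, which feeds oxaloacetate into the cycle, rose. PC, at chr11:66615704-66725847, minus strand (hg19), had 35.4 and 36.6 FPKM with vehicle and 52.0 and 51.3 FPKM after MGH-CP1. Replicates differed little in either condition, and the log2 fold change was 0.51 (SE 0.0492, limma adjusted p = 0.000125). LRFN4 lies over the gene on the opposite strand, with fragments equal to 24.8% of those of PC, and had 1086 and 1285 fragments with vehicle and 712 and 739 after MGH-CP1.

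Among the TCA cycle genes, 3 fell, 1 rose and 6 were not called. FH, fumarase, at chr1:241660903-241683061, minus strand (hg19), had 59.3 and 58.6 FPKM with vehicle and 39.1 and 41.9 FPKM after MGH-CP1. It stood clearly lower after treatment, with a log2 fold change of −0.53 (SE 0.0528, limma adjusted p = 0.000139). CS, citrate synthase, the entry step, had 64.2 and 61.1 against 48.4 and 49.99 FPKM, with a log2 fold change of −0.34 (SE 0.0507, limma adjusted p = 0.000931). IDH3A, the catalytic subunit of the NAD-dependent isocitrate dehydrogenase, had 7.004 and 6.23 against 5.36 and 4.84 FPKM, with a log2 fold change of −0.32 (limma adjusted p = 0.0165). Each of the 3 had both treated libraries below both vehicle libraries. The IDH3A call was lost without vehicle replicate 1 (limma adjusted p = 0.104) or MGH-CP1 replicate 2 (0.0873), and the calls of CS and FH held without any 1 library.

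The gene that rose was IDH1, whose enzyme works in the cytosol and peroxisomes with NADP and not in the cycle itself. IDH1 had 29.9 and 30.4 FPKM with vehicle and 50.3 and 46.6 FPKM after MGH-CP1, with a log2 fold change of 0.67 (SE 0.0557, limma adjusted p = 7.04e-05). IDH2, its mitochondrial counterpart, had 12.2 and 13.5 against 10.3 and 12.1 FPKM and was not called (log2 fold change −0.18, limma adjusted p = 0.113), with −0.29 (limma adjusted p = 0.0372) without MGH-CP1 replicate 2, −0.12 (0.367) without vehicle replicate 2 and −0.0754 (0.535) without MGH-CP1 replicate 1. The pair thus had values on opposite sides of 0. Within the other members, MDH2, the mitochondrial malate dehydrogenase, had 108 and 111 against 100.8 and 100.2 FPKM and narrowly missed the threshold (log2 fold change −0.12, limma adjusted p = 0.0522). Its cytosolic counterpart MDH1, with 91.0 and 88.0 against 93.6 and 90.0 FPKM, overlapped between conditions. OGDH, of the oxoglutarate dehydrogenase complex, had 61.3 and 60.02 against 61.1 and 60.6 FPKM, and the 95% interval of its log2 fold change was −0.10 to 0.11. The succinyl-CoA ligase subunits SUCLA2 and SUCLG1 had log2 fold changes of −0.12 and −0.11 and were not called. Summed over the 10 genes the level was 477 and 472 FPKM with vehicle and 450 and 446 FPKM after MGH-CP1, a ratio of 0.943.

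**Figure D4:**
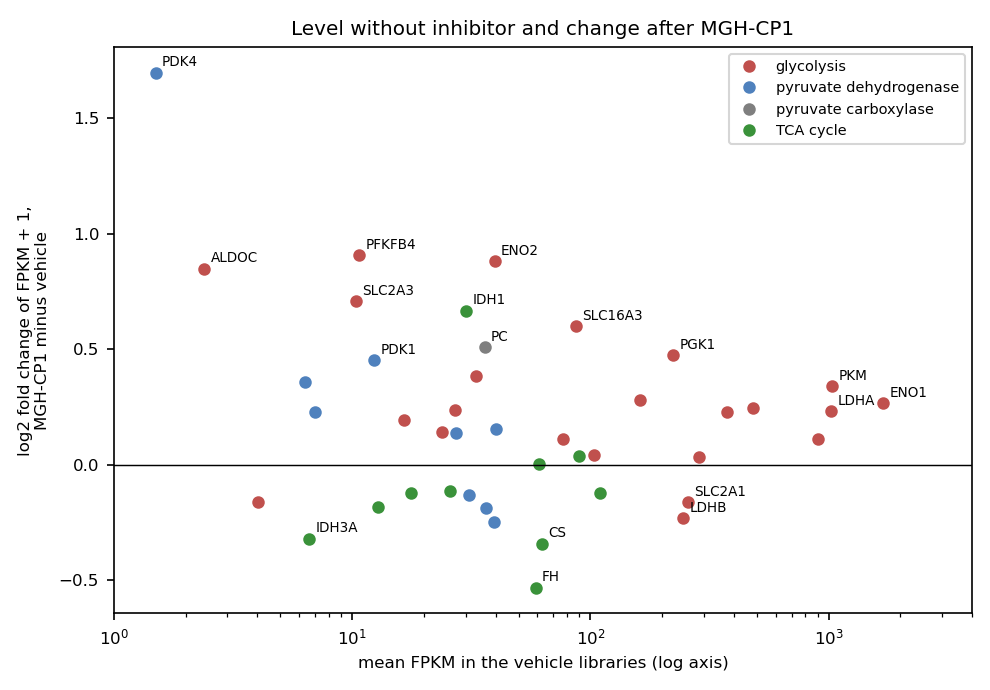
Log2 fold change of FPKM + 1 (vertical axis, MGH-CP1 minus vehicle) against the mean vehicle level (horizontal log axis, FPKM) of the 43 genes tested, coloured by class. The genes that rose most lie at low to middle levels, with PDK4 at 1.498 and ALDOC at 2.40 FPKM, and the most abundant, ENO1 at 1692 FPKM, rose by 0.27.

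In several isoenzyme families a scarcer gene gained share. That was so for SLC2A3, ALDOC, ENO2, HK2, PFKL, PFKFB4 over PFKFB3, and PDK4. For HK2 the gain was small, with 25.2% and 26.9% with vehicle and 27.5% and 28.1% after MGH-CP1. For PFKL the mean went from 15.7% to 16.8%. It was not so for lactate dehydrogenase, where the scarcer LDHB lost share. PFKM, the scarcest phosphofructokinase subunit, went from a mean of 7.82% to 7.34%, and PFKFB2 from 10.5% to 6.92%. Among the kinases, PDK2 went from a mean of 23.2% to 20.4% and PDK3 from 25.7% to 20.3%. The abundant PDK1 lost share as well. SLC16A1 went from a mean of 0.116% to 0.0782% of its pair, on 7 to 13 fragments a library and with overlap between the conditions.

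Genes of the same and neighbouring routes outside the 44 were mixed. Their counts, on few genes each, stand beside 27.1% called higher and 23.8% lower over all genes tested. Of 26 further glycolysis genes, 10 were tested, with 4 called higher, 2 lower and 4 neither. ENO3, the muscle enolase, had the largest rise (log2 fold change 0.75, from a mean of 2.57 to 4.99 FPKM) and SLC16A7, the transporter MCT2, the largest fall (−0.54, from 2.48 to 1.40 FPKM). Of 6 gluconeogenesis genes, 3 were tested, with G6PC3 called higher (0.26) and 2 lower, PCK2, the mitochondrial phosphoenolpyruvate carboxykinase, most (−0.45). In the pentose phosphate pathway 3 of 7 tested genes were higher, 1 lower and 3 neither. RPIA, the ribose 5-phosphate isomerase, had the fall (log2 fold change −0.37, from a mean of 14.99 to 11.35 FPKM).

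On the mitochondrial side the counts in 3 lists are to be read against the 27.1% higher and 23.8% lower over all genes tested. Among 5 tested genes of pyruvate entry and dehydrogenase outside the 44, none was called higher, 2 lower and 3 neither. PDPR, the regulatory subunit of pyruvate dehydrogenase phosphatase, fell most (log2 fold change −0.37), while MPC1 and MPC2, the mitochondrial pyruvate carrier, had −0.17 and 0.05 and were not called. Of 10 further TCA cycle genes tested, 2 were higher, 2 lower and 6 neither, with IDH3G at 0.23 and ACO1, the cytosolic aconitase, at −0.31. Of 13 genes of the malate, citrate and aspartate shuttles, 1 was higher, 5 lower and 7 neither. SLC25A1, which exports citrate from mitochondria, was the one that rose (0.39), and ME2, the mitochondrial malic enzyme, fell most (−0.45).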

How the data were processed

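RNA of the 4 libraries was sequenced as paired reads. The authors deposited FPKM for 48162 genes with coordinates and gene lengths. Per the labels' processing notes they used CASAVA 1.8, STAR and hg19, while the counting tool, annotation and use of strand are not given in the sources used here. The vehicle columns are named DMSO and were matched to the control samples by that term and the replicate number. Multiplying FPKM by gene length gave whole fragments for 100% of values (within 0.01), which supply the fragment numbers. Replicates differed beyond sampling noise (chi-square per degree of freedom 4.38 and 3.16), so each counted as 1 sample.

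Genes with a mean of at least 1 FPKM (12080) were compared as log2(FPKM + 1), a scale that understates changes of low genes, with limma 3.58.1 in R 4.3.3 (trend, two-sided, Benjamini-Hochberg adjustment, threshold 0.05), and the code was tested on simulated data. A single-gene exact permutation test cannot go below p = 0.333 with 2 against 2. The 44 genes and all lists were chosen with earlier results of these data known. Any of the 44 could be named. From each other list, the called genes with the largest rise and fall were named, and MPC1 and MPC2 were added after their values were seen. Some results that this rule would name are not reported here. TIGAR was matched by identifier. For SDHD and SLC25A10 a second entry listed at 0 was not used. PECAM1 was not analysed here. Shares, sums and class medians have no test.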

Additional observations from a re-analysis of the deposited data

How the results depend on the processing

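With 2 libraries a group, the calls rest on variance shared across genes: with none shared, 9 genes were called higher and 4 lower, and 0 of the 43 enzymes in either direction, although 30 had an unadjusted p under 0.05. Without the filter on low values, 1844 genes and 4 enzymes were called lower, and calls were lost for ENO1, PKM, LDHA, SLC2A1, HK2, PDK2, PDK3, PDP1, DLD and IDH3A. Median-ratio scaling gave medians of 0.18 (glycolysis), 0.10 (pyruvate dehydrogenase) and −0.18 (TCA cycle), and turned GPI (−0.0122), PGAM1 (−0.0216), OGDH (−0.0496) and MDH1 (−0.0180). Equal summed FPKM, chosen after seeing the data, gave 0.16, 0.0781 and −0.20, with 11 enzymes lower, and turned the same genes to −0.0346, −0.0442, −0.0719 and −0.0404. PDHA1, SUCLG1 and MDH2 were called lower under both of these scales, and the calls of PFKM, PDK3 and PDP1 were lost under both (limma adjusted p = 0.0685, 0.0682 and 0.1196, then 0.117, 0.101 and 0.218). PDK3 also lost its call under quantile normalization (0.0564) and voom (0.0591). Quantile normalization gave 0.15 and 0.19 for the first pair of classes, 19 enzymes higher and 11 lower, and turned GAPDH (−0.41), PGAM1 (−0.11), ENO1 (−0.0784), PKM (−0.15) and LDHA (−0.26). Of these, GAPDH, PKM and LDHA were called lower. Its construction sets the values of top-ranked genes by rank.

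Leaving out each library in turn gave medians of 0.23 to 0.26, 0.13 to 0.17 and −0.13 to −0.11, with 17 to 21 enzymes called higher and 4 to 7 lower, the 4 without MGH-CP1 replicate 2. OGDH ranged from −0.0109 to 0.0193. The replicate block gave 3466 genes higher and 3052 lower, and 22 and 9 enzymes, with IDH2 (adjusted p = 0.0400, limma) and MDH2 (0.0444) newly called and no other call changed. The deviations of same-numbered libraries from their group means were weakly correlated (r = 0.0777 over 12080 genes, 2 pairs). With 2 pairs this cannot show whether the numbers pair the samples. A pseudocount of 0.1, a minimum of 5 FPKM, limma without the trend, voom on fragments and totals without mitochondrial genes turned no direction.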
